A study of Mus musculus with 19 samples.

Results

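The mevalonate pathway up to squalene was followed in the livers of 6 mice through 9 genes, Acat2, Hmgcs1, Mvk, Pmvk, Mvd, Idi1, Fdps, Ggps1 and Fdft1. The 9 genes are the rows of the liver expression table that carry these symbols, out of 24054 rows in all. Each of the 9 averaged a value of 1 or more over the mice, and all 9 were tested together with the rest of the 11580 genes that reached this level. The rule that picks them out names genes and no measured value, although it was written with earlier results of these data known.

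All mice carried 2 floxed Raly alleles (Raly flox/flox) on the C57BL/6 background, ate chow, and were injected with an adeno-associated virus of serotype 8 whose hepatocyte-directed TBG promoter drove either Cre recombinase (AAV8.TBG.Cre; 3 mice, called L-RalyKO) or green fluorescent protein (AAV8.TBG.GFP; 3 mice, called control). Livers were taken 4 weeks after the virus. Males were the default of the study, and the age of these mice was not given in the sources used here. RALY is an RNA-binding protein of the heterogeneous nuclear ribonucleoprotein family, and the study asked whether its loss from hepatocytes alters the expression of cholesterol synthesis genes. Since whole liver was sequenced and the TBG promoter acts in hepatocytes, Raly in the other cells of the liver was not targeted. In bulk tissue, fewer cells of a type and less RNA per cell cannot be told apart.

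Hepatocytes make cholesterol and isoprenoids from acetyl-CoA. In the cytosol, a thiolase joins acetyl-CoA units into acetoacetyl-CoA, a synthase adds a further unit to form HMG-CoA, and HMG-CoA is reduced to mevalonate. Mevalonate is phosphorylated and decarboxylated to isopentenyl pyrophosphate, the building block that prenyltransferases join into farnesyl and geranylgeranyl pyrophosphate, and squalene synthase commits farnesyl pyrophosphate to sterols. The transcription factor SREBP2 is released from the endoplasmic reticulum when membrane cholesterol falls, and it activates these genes together with NFY, which binds CCAAT boxes, and SP1, which binds GC boxes.

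The promoters are shown because the genes are known as a shared set of targets of these factors, and the members are compared below for how far they moved together. RefSeq promoters (GRCm38.p6, 250 bases up to the start site) were found for 7 of the 9 members, and not for Fdps and Fdft1. Both strands were searched for CCAAT (the NFY box), GGGCGG (the SP1 box) and TCACNCCAC (a sterol regulatory element core). A match describes letters in this window and not a bound site. Capitals mark the matches, which appear as the reverse complement of the motif where they lie on the other strand. Hmgcs1, chr13:119690101-119690350 (plus strand), held all 3 motifs. Mvk, chr5:114444019-114444268 (plus strand), held the most CCAAT boxes, 5 in all. Mvd, chr8:122443423-122443672 (minus strand), and Idi1, chr13:8885356-8885605 (plus strand), held 2 CCAAT boxes and 1 GC box each. Acat2, chr17:12960726-12960975 (minus strand), held a GC box and no CCAAT box, and Ggps1, chr13:14063489-14063738 (minus strand), held 3 CCAAT boxes and no GC box.
Acat2: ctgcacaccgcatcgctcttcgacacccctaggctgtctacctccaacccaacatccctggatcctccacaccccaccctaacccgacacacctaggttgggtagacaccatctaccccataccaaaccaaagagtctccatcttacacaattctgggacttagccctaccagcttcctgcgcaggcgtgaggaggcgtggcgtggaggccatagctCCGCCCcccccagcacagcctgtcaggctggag
Hmgcs1: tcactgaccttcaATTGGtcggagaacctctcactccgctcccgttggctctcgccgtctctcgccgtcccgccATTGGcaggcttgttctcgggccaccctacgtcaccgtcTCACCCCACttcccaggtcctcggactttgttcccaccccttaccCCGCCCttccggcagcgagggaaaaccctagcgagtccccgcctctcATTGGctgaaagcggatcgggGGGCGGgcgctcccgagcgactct
Mvk: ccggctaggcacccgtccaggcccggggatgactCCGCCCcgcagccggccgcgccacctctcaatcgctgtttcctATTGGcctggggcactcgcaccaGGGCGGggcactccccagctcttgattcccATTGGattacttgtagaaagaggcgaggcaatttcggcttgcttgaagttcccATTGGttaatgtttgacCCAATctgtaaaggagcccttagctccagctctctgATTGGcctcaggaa
Mvd: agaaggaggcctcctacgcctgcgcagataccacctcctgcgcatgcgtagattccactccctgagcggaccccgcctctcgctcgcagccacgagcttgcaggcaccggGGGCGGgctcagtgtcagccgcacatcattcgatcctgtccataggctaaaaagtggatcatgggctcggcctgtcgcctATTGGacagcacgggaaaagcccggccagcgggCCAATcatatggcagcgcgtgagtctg
Idi1: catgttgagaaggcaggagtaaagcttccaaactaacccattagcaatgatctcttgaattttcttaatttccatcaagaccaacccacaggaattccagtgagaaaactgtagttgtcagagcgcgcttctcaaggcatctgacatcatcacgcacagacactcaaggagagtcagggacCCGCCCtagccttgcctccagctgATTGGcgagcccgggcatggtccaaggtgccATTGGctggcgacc
Ggps1: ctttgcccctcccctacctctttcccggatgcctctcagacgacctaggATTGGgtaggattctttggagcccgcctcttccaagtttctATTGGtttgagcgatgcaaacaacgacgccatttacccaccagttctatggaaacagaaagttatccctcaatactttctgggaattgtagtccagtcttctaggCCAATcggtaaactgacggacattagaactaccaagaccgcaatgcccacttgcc

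CCAAT was present in a promoter of 6 of the 7 members, against 33.8% of 32851 mouse promoters of the same length. It occurred at least 2 times in a promoter of 5 members, against 10.1% of all promoters. GGGCGG was present for 5 of the 7 members, against 32.7% of all promoters. TCACNCCAC was present only for Hmgcs1 among the 7, against 1.05% of all promoters. Pmvk has 2 annotated starts, chr3:89454291-89454540 (plus strand) and chr3:89459321-89459570 (plus strand), and only the former held a match, a single CCAAT. These shares are descriptions of letters, and no test was made of them.

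The values in the table are reads scaled to the effective library size of each mouse (comparable to CPM), so they can be compared between mice for a gene, but they are not divided by gene length. Depth ranged from 28302983 to 38052705 reads per mouse, and 3 reads correspond to a value of 0.0789 to 0.105. This floor covers counting error only. The labels number the mice from 1 to 3 in each group. Control mouse 1 stood apart from the other 2 controls, with a chi-square of reads over genes per degree of freedom of 71.7 and 84.9, against 12.7 to 27.6 for the other pairs within a group. Raly itself was at 6.34, 6.61 and 7.39 in the L-RalyKO livers and at 50.1, 48.6 and 46.8 in the controls, and it fell by 2.67 on the log2 scale (SE 0.069, limma adjusted p = 6.92e-07). The hepatocyte markers Alb, Apoa1, Ttr, Serpina1a, Ass1 and Cps1 were all abundant, with a summed value of 92574 to 94064 in L-RalyKO and 82578 to 91910 in control livers, and 0 of the 6 passed the test, beside 6.55% of all genes. All 6 had a fold change above 0, 3 of them at an unadjusted limma p under 0.05, beside 11.8% of all genes in this direction.

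No member of the pathway passed the test between L-RalyKO and control liver. The limma adjusted p was under 0.05 for 0 of the 9 members, where 6.55% of the 11580 tested genes passed, 3.36% being higher and 3.19% lower in L-RalyKO. At an unadjusted p under 0.05, 1 member was lower (Hmgcs1), where 22.7% of all genes were past this level, 10.9% lower and 11.8% higher. The 2 groups of mice overlapped for every one of the 9 members, whereas they did not overlap for 28.1% of all genes, 14.4% higher and 13.7% lower in L-RalyKO. Fold changes were above 0 for 6 members and below 0 for 3, beside 51.2% above 0 among all genes, and their median was 0.11 on the log2 scale, beside 0.0044 for all genes. The fold changes ranged from -0.38 for Hmgcs1 to 0.25 for Mvd. Fold changes are given here as L-RalyKO minus control on the scale of log2(value + 1), which understates the change of low genes, with the standard error of limma and its 95% interval.

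**Figure D1:**
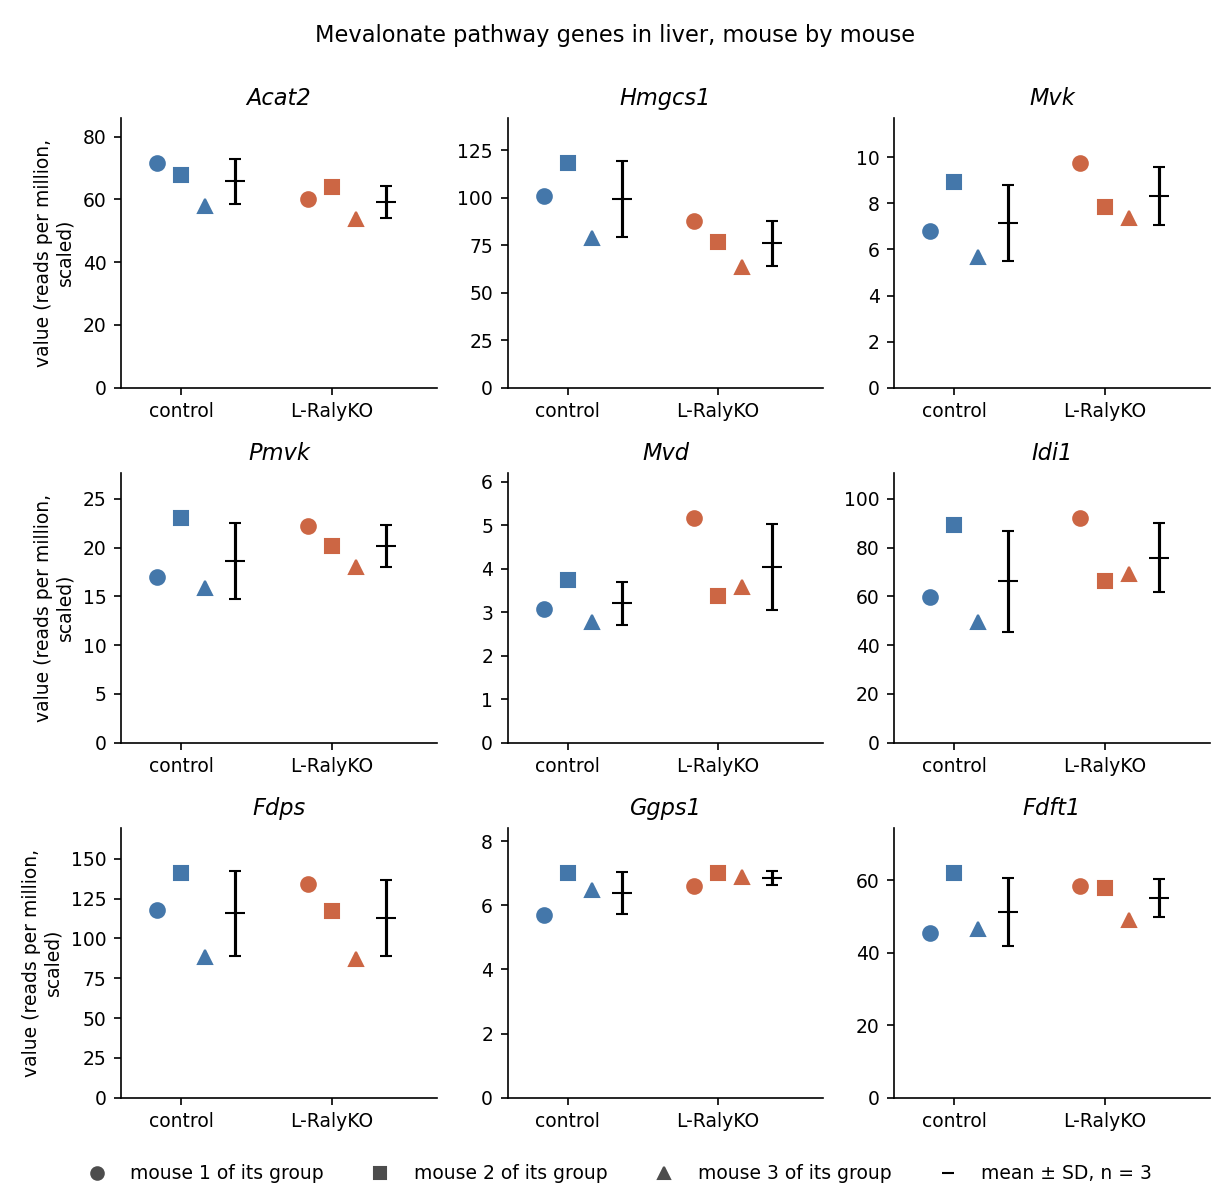
Value of each of the 9 genes (reads scaled to library size, not divided by length) in every mouse; blue points are control and orange points L-RalyKO livers, the shape of the point is the mouse's number in its group, and the black bar is the mean ± SD (n = 3). The 2 groups overlap in all 9 panels, and the square for control mouse 2 is the highest control in 8 of them.

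The pathway starts with Acat2, the cytosolic thiolase that forms acetoacetyl-CoA. Its values were 60.2, 63.8 and 53.8 in L-RalyKO mice 1 to 3 and 71.7, 67.8 and 57.8 in control mice 1 to 3. The means were 59.2 ± 5.08 (SD, n = 3) and 65.8 ± 7.17, and 1 control, number 3, lay among the L-RalyKO values. The log2 change was -0.15 (SE 0.090, interval -0.35 to 0.059), with a limma adjusted p of 0.381. It ranged from -0.235 without control mouse 3 to -0.079 without L-RalyKO mouse 3. Acat2 lies on chromosome 17 (chr17:13135756-13153613, minus strand, mm9 annotation of GENCODE vM1) and shares 41.4% of the 50-base words of its longest coding transcript with the paralog Acat3. The reads of Acat2 are therefore uncertain. Acat3 was at 237, 250 and 232 in L-RalyKO and 251, 259 and 255 in control livers, with a log2 change of -0.09 (adjusted p = 0.311 in limma).

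Hmgcs1, the cytosolic HMG-CoA synthase, was the member with the lowest values in L-RalyKO relative to control. It was at 87.6, 76.4 and 63.7 in L-RalyKO and at 100.9, 118 and 78.7 in control livers. Control mouse 3 fell below L-RalyKO mouse 1, so the groups overlapped, while the other 2 controls lay above every L-RalyKO liver. The means were 75.9 ± 12.0 and 99.4 ± 19.9 (SD, n = 3 each), a ratio of 0.764. The log2 change was -0.38 (SE 0.15, interval -0.72 to -0.029), with an unadjusted limma p of 0.0367 and an adjusted p of 0.187. The two-sided exact permutation test over the 6 mice gave p = 0.2, where the smallest p the design allows is 0.1. DESeq2 on the reads recovered from the values gave an adjusted p of 0.0435 for Hmgcs1, with 9.36% of genes passing, and edgeR gave 0.314, with 6.68% passing. Without control mouse 1 no member passed, and Hmgcs1 had a log2 change of -0.36 (adjusted p = 0.356 in limma). Without control mouse 3 the limma adjusted p of Hmgcs1 was 0.048 at a log2 change of -0.53, and without control mouse 2 it was 0.397 at -0.24.

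Mvk, Pmvk and Mvd carry mevalonate to isopentenyl pyrophosphate. Mevalonate kinase, Mvk (chr5:114894278-114910600, plus strand), was at 9.77, 7.83 and 7.37 in L-RalyKO and at 6.80, 8.94 and 5.68 in control livers. Its means were 8.32 ± 1.28 and 7.14 ± 1.66 (n = 3 each), and its log2 change was 0.21 (SE 0.15, interval -0.14 to 0.55) with an adjusted p of 0.468 in limma. The controls spanned the 2 lower L-RalyKO values, with control mouse 2 above them. Mvk lies 210 bases from Mmab, a vitamin B12 pathway gene on the opposite strand that is known to share its promoter region. Mmab had a log2 change of -0.08 (adjusted p = 0.723 in limma).

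Phosphomevalonate kinase, Pmvk (chr3:89263040-89272935, plus strand), was at 22.3, 20.2 and 18.0 in L-RalyKO and at 16.9, 23.1 and 15.9 in control livers. Control mouse 2 was the highest of all 6 mice and the other 2 controls were the lowest. The log2 change was 0.12 (SE 0.13, interval -0.18 to 0.42), with a limma adjusted p of 0.653. Mevalonate diphosphate decarboxylase, Mvd (chr8:124957496-124967322, minus strand), was at 5.18, 3.37 and 3.58 in L-RalyKO and at 3.07, 3.75 and 2.78 in control livers. L-RalyKO mouse 1 stood above the other 5 mice, which lay between 2.78 and 3.75. Mvd had the highest fold change of the members, 0.25 on the log2 scale (SE 0.15, interval -0.089 to 0.59), with a limma adjusted p of 0.364. The value rested in part on L-RalyKO mouse 1, without which it was 0.096, and without control mouse 2 it was 0.34, below Idi1 (0.46) and Mvk (0.36).

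Idi1, the isomerase that makes dimethylallyl pyrophosphate from isopentenyl pyrophosphate (chr13:8884852-8891641, plus strand), was at 92.4, 66.3 and 69.1 in L-RalyKO and at 59.8, 89.4 and 49.4 in control livers. L-RalyKO mouse 1 and control mouse 2 were almost level at the top, and control mouse 3 was the lowest. The means were 75.9 ± 14.3 and 66.2 ± 20.8 (n = 3 each), and the log2 change was 0.22 (SE 0.20, interval -0.24 to 0.68) with a limma adjusted p of 0.564. Its interval was the widest of the 9, and its change ranged from 0.037 without control mouse 3 to 0.46 without control mouse 2.

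At the branch point, Fdps makes farnesyl pyrophosphate and Ggps1 makes geranylgeranyl pyrophosphate. Fdps (chr3:88897514-88905881, minus strand) was at 134, 117 and 87.1 in L-RalyKO and at 118, 141 and 88.2 in control livers. The groups covered almost the same range, with means of 113 ± 23.9 and 116 ± 26.6 (n = 3 each). The log2 change was -0.03 (SE 0.19, interval -0.46 to 0.40), with a limma adjusted p of 0.945, and its sign depended on single mice, being 0.14 without L-RalyKO mouse 3 and 0.13 without control mouse 2. Ggps1 (chr13:14144637-14155668, minus strand) was at 6.60, 7.02 and 6.89 in L-RalyKO and at 5.69, 7.01 and 6.46 in control livers. On the scale of log2(value + 1) Ggps1 had the narrowest interval of the members, from -0.11 to 0.29 around a log2 change of 0.09. Its SE was 0.088 and its limma adjusted p 0.601. With a pseudocount of 0.1 the SE of Acat2 (0.0915) was smaller than that of Ggps1 (0.0998). The change of Ggps1 was 0.020 without control mouse 1 and 0.15 without control mouse 2.

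Squalene synthase, Fdft1 (chr14:63763990-63796630, minus strand), closes this section of the pathway. It was at 58.6, 57.9 and 49.1 in L-RalyKO and at 45.4, 62.2 and 46.6 in control livers. Control mouse 2 was again the highest of the 6 mice and the other 2 controls were the lowest. The log2 change was 0.11 (SE 0.12, interval -0.16 to 0.39), with a limma adjusted p of 0.637. Exons of Fdft1 overlap those of Ctsb on the opposite strand over 769 bases, 26.9% of the exonic bases of Fdft1, and exons of Ggps1 overlap Arid4b over 170 bases, 7.11%. Whether reads were counted by strand was not given in the sources used here, so the values of Fdft1 and Ggps1 may include reads of the neighbour. Ctsb had a log2 change of -0.04 (adjusted p = 0.725 in limma).

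**Figure D2:**
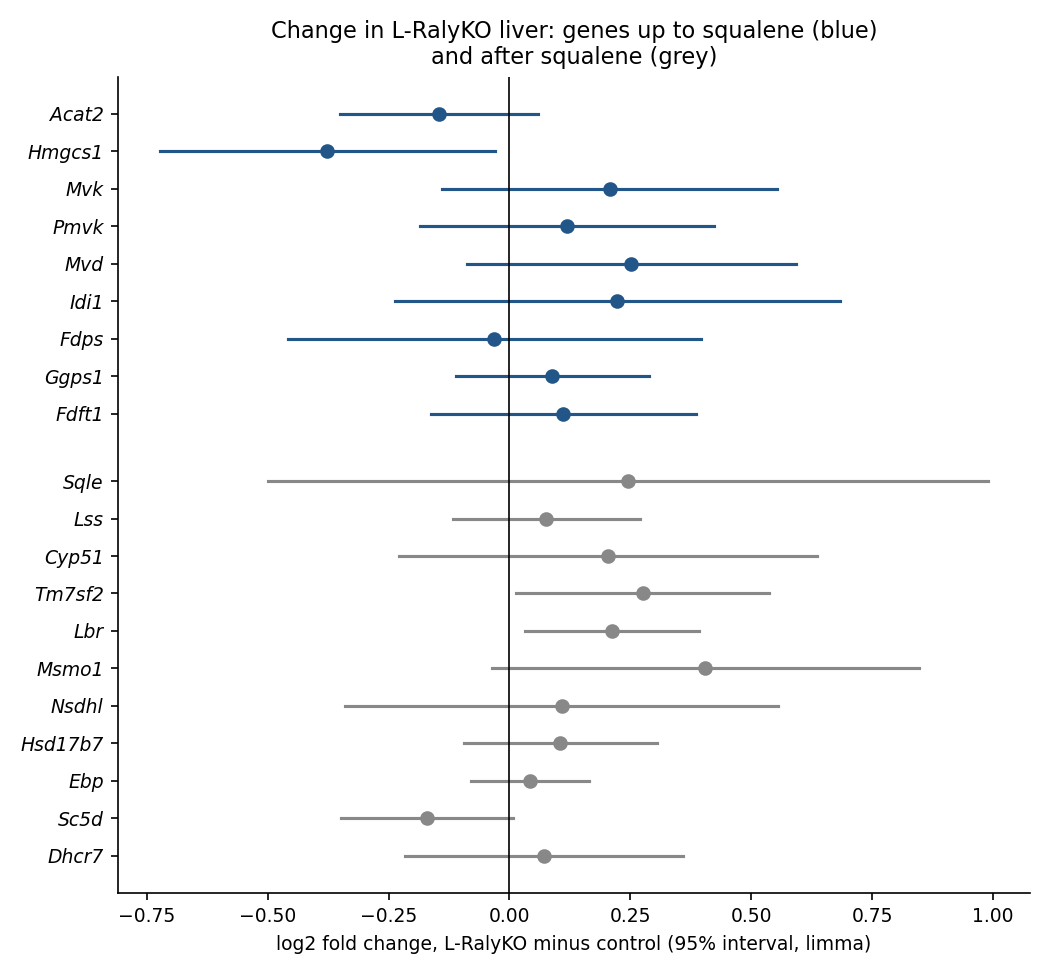
Log2 fold change (L-RalyKO minus control, horizontal axis) with its 95% limma interval for the 9 genes up to squalene (blue) and 11 of the 12 genes after squalene (grey), in pathway order from top to bottom. Among the 9 genes only the interval of Hmgcs1 (-0.72 to -0.029) lies on 1 side of 0, and after adjustment over all genes no interval shown belongs to a gene that passed.

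Divided by the length of the longest coding transcript, the level per kilobase of the 8 members with a length in the annotation differed more between members than between groups. Among controls Fdps was highest at 93.8 ± 21.6 per kb (SD, n = 3). Acat2 (29.2 ± 3.19), Idi1 (23.1 ± 7.25), Fdft1 (18.0 ± 3.28) and Pmvk (15.6 ± 3.25) followed, and neighbours in this order lay within their spread of each other. Mvk (4.23 ± 0.984), Ggps1 (2.70 ± 0.280) and Mvd (1.82 ± 0.282) were the lowest per kb, below Pmvk and apart from each other by more than their spread. In L-RalyKO livers Fdps was again highest per kb at 91.6 ± 19.3 and Mvd had the lowest mean, 2.29 ± 0.562. There Mvd and Ggps1 (2.89 ± 0.0906) were not apart by more than their spread, and in L-RalyKO mouse 1 Mvd (2.94) was above Ggps1 (2.79). Hmgcs1 had no entry by this symbol in the annotation and has no value per kb or mm9 position here.

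Most members had their highest and lowest values in the same mice. The value of control mouse 2 was the highest of the controls for 8 of the 9 members, Acat2 being the exception, beside 31.5% of all tested genes. Control mouse 3 was the lowest control for 7 of the 9. In the L-RalyKO group mouse 1 was the highest for 7 of the 9 members, beside 32.7% of all genes, and mouse 3 was the lowest for 6. Both control mouse 2 and L-RalyKO mouse 1 were the highest of their group for 7 members, beside 9.98% of all genes. The summed value of the 9 genes was 477, 420 and 359 in L-RalyKO mice 1 to 3 and 428, 522 and 351 in control mice 1 to 3. The controls thus spanned a wider range than the distance between the groups.

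Depth and markers of other cells also differed among the mice. Among controls, mouse 2 had the fewest reads (28302983) and mouse 3 the most (37132274), and among L-RalyKO livers mouse 3 had the most (38052705) and mouse 2, not mouse 1, the fewest (34660211). Markers of macrophages moved with the controls in part: control mouse 2 was the highest control for 6 of the 6 markers, with a summed value of 163 against 108 and 130 in control mice 1 and 3, although control mouse 1 and not mouse 3 was lowest. In L-RalyKO the macrophage markers summed to 141, 109 and 133, with mouse 2 lowest for 6 of 6. Of 6 endothelial markers, L-RalyKO mouse 1 was the highest of its group for 5 and L-RalyKO mouse 2 the lowest for 6. Stellate cell markers ran the other way, with L-RalyKO mouse 3 the highest of its group for 6 of 6 and control mouse 2 the lowest control for 5 of 6. The part of depth and of these cell types in the order of the mice was not tested.

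**Figure D3:**
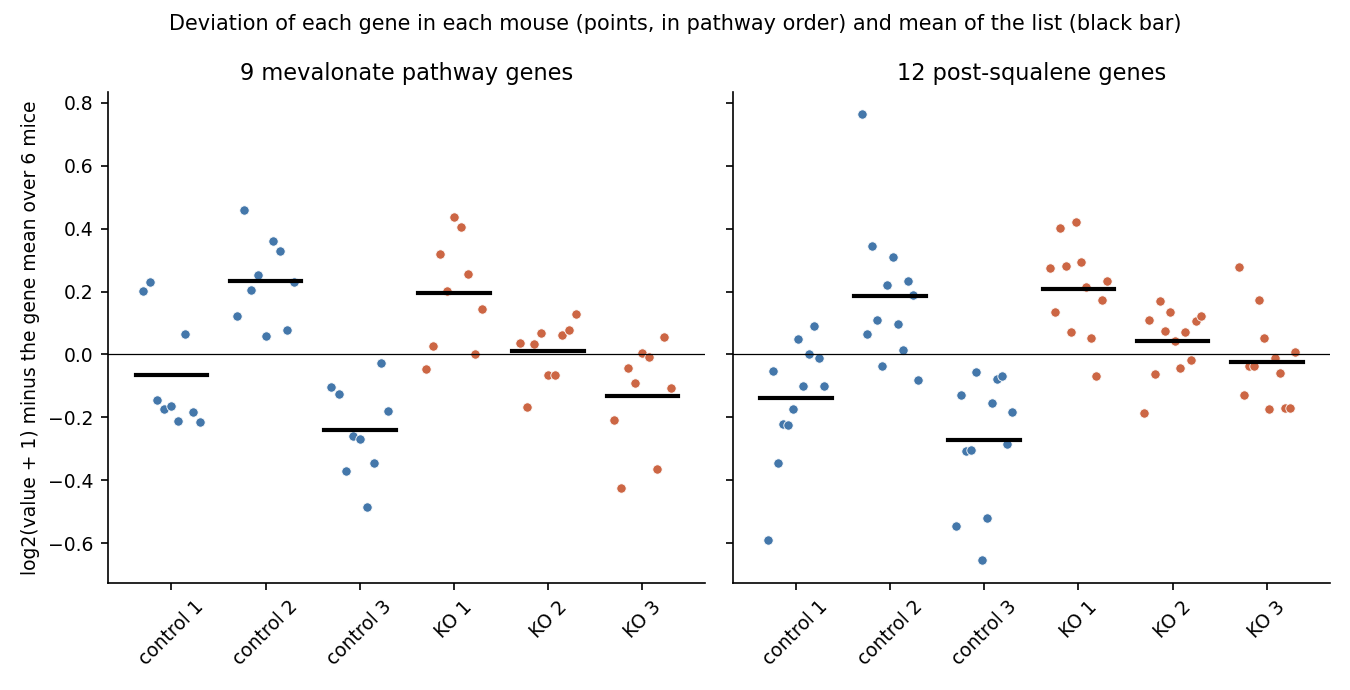
Log2(value + 1) of each gene minus that gene's mean over the 6 mice (vertical axis), by mouse, for the 9 genes up to squalene (left) and the 12 genes after squalene (right); a point is a gene, placed in pathway order within its mouse, and the black bar is the mean over the list. Control mouse 2 (mean deviation 0.23) and L-RalyKO mouse 1 (0.19) stand high on the left, and control mouse 3 (-0.24) and L-RalyKO mouse 3 (-0.13) stand low.

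Over the 36 pairs of members, the median Pearson correlation of log2(value + 1) over the 6 mice was 0.62, with a range from -0.45 to 0.98, and 33 of the 36 were positive. Spearman's coefficient had a median of 0.57 and was positive for 32 pairs. Among all 67042410 pairs of tested genes the median r was 0.0015 and 50.1% were positive. Taken as deviations from the group means, so that no difference between the groups enters, the median r of the members was 0.79 and 35 of the 36 were positive. With 6 mice, 10 pairs had an unadjusted exact permutation p under 0.05, and 0 of the 36 passed after Benjamini-Hochberg adjustment over the pairs (smallest adjusted exact p = 0.075). The orderings of 6 mice are too few for a single pair to pass this adjustment alone, however high its r. The adjusted count therefore cannot decide whether a given pair is correlated. All pairs share the same 6 libraries and their scaling, and without control mouse 2 the number of positive pairs was 27. Without control mouse 1 it was 36, with a median r of 0.72.

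The closest pairs were not always neighbouring steps. Mvk and Idi1 had r = 0.98 over the 6 mice (Spearman's coefficient 0.94, exact permutation p = 0.00278, adjusted 0.075), and r = 0.94 without the 2 mice farthest from the median of Mvk. Pmvk and Fdft1 had r = 0.96 (Spearman's coefficient 0.94, exact permutation p = 0.00972, adjusted 0.0875) and 0.95 without the 2 farthest mice. Mvk and Pmvk had r = 0.95 (Spearman's coefficient 0.94, exact permutation p = 0.00417, adjusted 0.075) and 0.99 without the 2 farthest mice. Mvd and Idi1 ranked the 6 mice identically (Spearman's coefficient 1, r = 0.89). As a group picked out after the values were seen, Mvk, Pmvk, Mvd, Idi1 and Fdft1 had a median r of 0.90 over their 10 pairs, with the lowest at 0.66.

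Acat2 and Hmgcs1, the entry steps, followed each other (r = 0.83, Spearman's coefficient 0.77, exact permutation p = 0.0403, adjusted 0.164, and r = 0.72 without the 2 farthest mice). With the group of 5 they had a median r of 0.19 over 10 pairs (-0.12 to 0.44) when the mice were pooled. Within the groups, as deviations from the group means, the same 10 pairs had a median r of 0.66 and all 10 were positive. This median lies between the 2 genes, with r from 0.26 to 0.53 for Acat2 and from 0.78 to 0.95 for Hmgcs1. Hmgcs1 and Fdps had r = 0.78 pooled (Spearman's coefficient 0.89, exact permutation p = 0.0611, adjusted 0.177, and 0.40 without the 2 farthest mice) and r = 0.99 as deviations. Ggps1 was the least alike as deviations from the group means, with a median r of 0.37 to the other 8 members when pooled (-0.45 with Acat2 to 0.70 with Fdft1) and 0.18 as deviations.

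**Figure D4:**
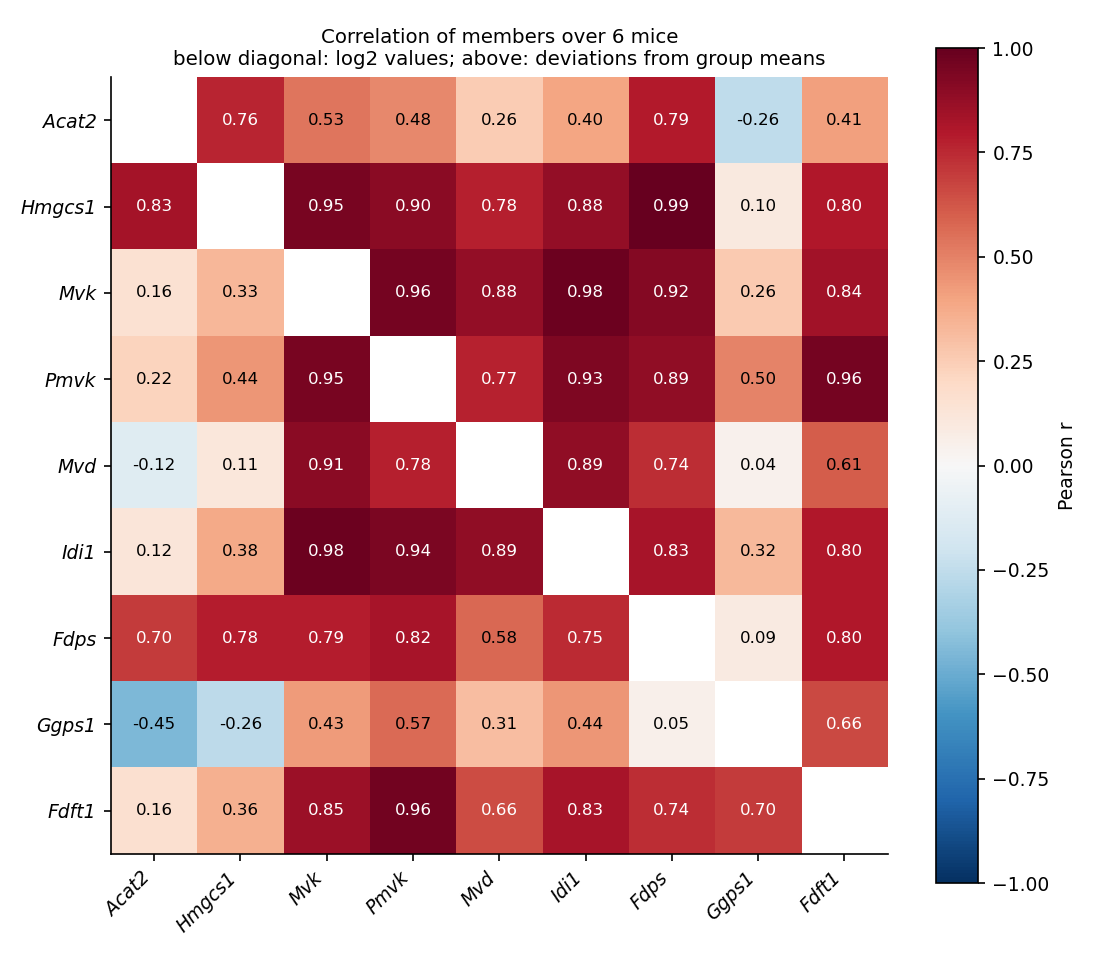
Pearson correlation over the 6 mice for each pair of the 9 genes, with values of log2(value + 1) below the diagonal and deviations from the group means above it; red is positive and blue negative. Mvk, Pmvk, Mvd, Idi1 and Fdft1 are red with each other in both triangles, whereas the rows of Hmgcs1 and Acat2 with them are pale below the diagonal (median 0.19) and darker above it (median 0.66).

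The balance between members was examined as the log ratio of each pair in each mouse, the difference of their log2(value + 1). This log ratio did not overlap between the groups for 6 of the 36 pairs (16.7%), beside 29.9% of all pairs of tested genes. The members thus did not exceed the background. All 6 had Hmgcs1 as the numerator and were lower in L-RalyKO, with Mvk, Pmvk, Mvd, Idi1, Fdps and Fdft1 as the other gene. As a ratio of plain values, Hmgcs1 to Fdps, for example, was 0.653, 0.651 and 0.731 in L-RalyKO and 0.859, 0.838 and 0.893 in control livers. The ratio of Hmgcs1 to Idi1 was 0.948, 1.15 and 0.922 in L-RalyKO and 1.69, 1.32 and 1.60 in control livers. Without the added 1, the ratio of Mvk to Fdps also did not overlap, and it was higher in L-RalyKO. It was 0.0728, 0.0668 and 0.0845 in L-RalyKO and 0.0578, 0.0633 and 0.0644 in control livers. These ratios compare a gene with itself across mice and are not ratios of transcript number.

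The genes most like the members over the mice were sought among the 7417 other genes that averaged 10 or more, by Pearson r with the mean of the 9 standardized members over the 6 mice. The highest 5 were Npc1, which exports cholesterol from lysosomes (r = 0.99), the ribosomal protein gene Rps7 (0.98), Dedd2 (0.98), the clock output factor Dbp (0.97) and Ergic3 (0.96). Npc1 was at 224, 219 and 205 in L-RalyKO and 208, 229 and 199 in control livers, again with control mouse 2 highest and control mouse 3 lowest. With 6 mice and 7417 genes compared, these values are a description.

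After squalene the same 2 mice were mostly the highest of their groups. Of the 12 genes examined from squalene to cholesterol, control mouse 2 was the highest control for 12, beside 31.5% of all genes, and L-RalyKO mouse 1 the highest of its group for 8, beside 32.7%. Control mouse 3 was the lowest control for 9 and L-RalyKO mouse 3 the lowest of its group for 8. None of the 12 passed the limma test, beside 6.55% of all genes. At an unadjusted limma p under 0.05, 3 were higher and 0 lower in L-RalyKO, beside 11.8% and 10.9% of all genes. The groups did not overlap for 2 of the 12, both higher in L-RalyKO, beside 14.4% of all genes in this direction. The median log2 fold change of the 12 was 0.16, and 11 of the 12 were above 0, beside 51.2% of all genes, Sc5d being below. Msmo1, a sterol demethylase, had a log2 change of 0.41 (adjusted p = 0.258 in limma) and Tm7sf2, a sterol reductase, of 0.28 (adjusted p = 0.199). The change of Msmo1 was 0.18 without control mouse 3 and 0.62 without control mouse 2.

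Among 11 genes of SREBP regulation and its partner factors, 1 was higher and 2 were lower in L-RalyKO by limma, beside 3.36% and 3.19% of all genes. Insig1, which retains SREBP in the endoplasmic reticulum and is itself an SREBP target, was at 205, 180 and 170 in L-RalyKO and 113, 149 and 115 in control livers, and rose by 0.56 on the log2 scale (adjusted p = 0.0211 in limma). Insig2, its paralog, was at 81.2, 91.8 and 91.8 against 158, 113 and 130, and fell by 0.58 (adjusted p = 0.019 in limma). Srebf1, which encodes SREBP1, was at 191, 245 and 166 against 323, 299 and 312, and fell by 0.65 (adjusted p = 0.0173 in limma). Without L-RalyKO mouse 1 the adjusted p was 0.0746 for Insig1, 0.073 for Insig2 and 0.0646 for Srebf1, and without control mouse 1 it was 0.0741 for Insig1 and 0.0635 for Srebf1. Without L-RalyKO mouse 2 it was 0.0581 for Insig1.

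Srebf2, which encodes SREBP2, was at 38.4, 36.8 and 39.7 in L-RalyKO and 35.8, 39.9 and 34.2 in control livers. The groups overlapped, and the log2 fold change was 0.06 (SE 0.067, interval -0.088 to 0.22, adjusted p = 0.622 in limma). It was 0.018 without control mouse 3 and 0.13 without control mouse 2. The NFY subunit genes Nfya, Nfyb and Nfyc, Sp1 and Scap also did not pass the test.

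Of a list of 9 further SREBP2 target genes, of which Nsdhl is also among the 12 genes after squalene, 0 were higher and 1 was lower in L-RalyKO, beside 3.36% and 3.19% of all genes. Acly, which makes cytosolic acetyl-CoA from citrate and so feeds both sterol and fatty acid synthesis, was at 343, 315 and 308 in L-RalyKO and 516, 480 and 437 in control livers, and fell by 0.56 on the log2 scale (adjusted p = 0.00365 in limma). Aacs, which activates acetoacetate in the cytosol, had a log2 change of -0.26 (adjusted p = 0.584 in limma), which ranged from -0.58 without control mouse 2 to -0.087 without control mouse 1. Acly supplies the substrate of Acat2, and its controls all lay above every L-RalyKO liver.

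The genes that use farnesyl and geranylgeranyl pyrophosphate, prenyltransferases and the enzymes of dolichol and ubiquinone synthesis among them, were examined together with Idi2, a paralog of Idi1. Of these 13 genes, 12 were tested and Idi2 was too low. None of the 12 passed, beside 6.55% of all genes, and their median log2 fold change was -0.03. The furthest from 0 were Pdss2, of ubiquinone side chain synthesis, at -0.14 (adjusted p = 0.435 in limma), and Nus1, of dolichol synthesis, at 0.11 (adjusted p = 0.268). The change of Pdss2 ranged from -0.235 without control mouse 2 to -0.085 without control mouse 3.

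Fatty acid synthesis was set beside the members because it draws on the same acetyl-CoA. Of 6 genes, 5 were tested and 3 were lower in L-RalyKO by limma, beside 3.19% of all genes. Elovl6, an elongase, fell by 0.62 on the log2 scale (adjusted p = 0.00527), Fasn, fatty acid synthase, fell by 0.50 (adjusted p = 0.0445) and Acaca, acetyl-CoA carboxylase, fell by 0.30 (adjusted p = 0.0264). The adjusted p of Fasn was over 0.05 in 8 of 16 other settings, among them edgeR (0.0737) and the omission of any mouse other than control mouse 3. Its highest value was 0.116, without control mouse 1. That of Acaca was over 0.05 in 5 of 16 settings, 4 of which left out L-RalyKO mouse 1 (0.0997) or 3 (0.0715) or control mouse 1 (0.0807) or 2 (0.0715).

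Feeding state and time of day also act on the pathway, so genes of both were examined. Of 7 fasting genes, Pck1, of gluconeogenesis, rose by 0.78 on the log2 scale (adjusted p = 0.00312 in limma) and G6pc, which releases glucose, fell by 0.61 (adjusted p = 0.0125), so that they went in opposite directions, beside 3.36% higher and 3.19% lower of all genes. Of 13 clock genes, 12 were tested and Nfil3 rose by 0.73 (adjusted p = 0.0185 in limma), beside 3.36% of all genes, while Ciart had a log2 change of 0.40 (adjusted p = 0.0591 in limma, 0.00878 in DESeq2, and 0.0221 in limma without control mouse 3). The adjusted p of Nfil3 was 0.0551 to 0.0612 when any of the 3 L-RalyKO mice was left out. Control mouse 2 was the highest control for 8 of the 12 clock genes, beside 31.5% of all genes, and L-RalyKO mouse 1 the highest of its group for 5, beside 32.7%. The part of feeding and time of day in the order of the mice was not tested.

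Among markers of other cell types, 0 of 6 macrophage, 0 of 6 endothelial, 0 of 6 stellate and 0 of 3 tested cholangiocyte genes passed, beside 6.55% of all genes, and all 6 lymphoid genes were too low to test. The adipocyte marker Cfd was lower in L-RalyKO, with a log2 change of -2.10 (adjusted p = 0.0318 in limma). The 5 adipocyte markers summed to 0.132 to 1.10 in L-RalyKO and to 2.81 to 13.1 in control livers, highest in control mouse 1. Adipoq, Lep, Retn and Plin1 were at or below 0.209 in every mouse. Control mouse 1 was the highest control for 1 of the 9 members, Acat2. The part of adipocyte RNA in the order of the mice was not tested.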

How the data were processed

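The table used here holds liver RNA values of 3 L-RalyKO and 3 control mice, from a stranded kit and paired-end reads. Per the labels and the study's methods, reads were aligned with TopHat to mm9 and processed with Cufflinks 2.0.2 and Cuffdiff, while how the deposited values were counted and scaled was not given in the sources used here. The deposited signal values equal whole reads scaled to an effective library size: 100% of values were whole multiples of the value of 1 read in each mouse (tolerance 1e-04 reads), and the factors between read totals and these library sizes equal the TMM factors that edgeR computes from the recovered reads. Chromatin data of the series were not used here, and some genes of this and related pathways are not reported here.

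The main test was limma 3.58.1 (R 4.3.3) with an intensity trend on log2(value + 1) over the 11580 genes that averaged 1 or more, Benjamini-Hochberg adjusted over all of them, at a threshold of 0.05. Alternatives were edgeR 4.0.16, DESeq2 1.42.0 and voom on the recovered reads, other scalings, filters and pseudocounts, a replicate block, and the omission of each mouse. edgeR called 774 genes, limma 758. No 2 mice of a group had matching libraries: the chi-square of their reads per degree of freedom was 12.7 to 27.6 between L-RalyKO mice and 18.3 between controls 2 and 3, and control 1 stood further apart (71.7 and 84.9). The labels do not say that equal numbers mark a litter or day. Deviations of same-numbered mice correlated at 0.066, -0.024 and 0.020, so mice were not paired in the main test. The labels give separate mice, each with 1 library.

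The members and all gene lists were chosen with earlier results of these data known. Named genes were Raly, the 9 members and the 5 genes most correlated with the members. In each list reported here the genes that passed were also named. The 2 genes with the largest absolute log2 fold change were named too, except among cell markers. Genes named outside these rules are Srebf2, Sc5d, Nsdhl, Idi2 and Me1, the neighbours and paralog of members, and factors and markers named without values or as sums. Positions and lengths are from GENCODE vM1 (mm9), found for 8 of the 9 members, and promoters are from RefSeq (GRCm38.p6).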

Additional observations from a re-analysis of the deposited data

How the results depend on the processing

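The number of genes that differed was 758, 484 when all genes with at least 1 read were tested and 1084 with DESeq2, with 335 to 812 when a mouse was left out (lowest without L-RalyKO mouse 1). The number of members that differed was 0, and 1 (Hmgcs1) with DESeq2, with 0 to 1 when a mouse was left out (1 without control mouse 3). The number of other pathway genes that differed was 10, beside 6.55% of all genes. These were Insig1, Insig2, Srebf1, Acly, Elovl6, Fasn, Acaca, Pck1, G6pc and Nfil3, so fasting and clock genes were counted and cell markers were not. The number was 9 to 15 under other tools, scalings, filters and pseudocounts (15 with DESeq2, beside 9.36% of all genes). It was 4 to 11 when a mouse was left out (4 without L-RalyKO mouse 1, 6 without control mouse 1). At an unadjusted p under 0.05 by limma, 4 members (Mvk, Pmvk, Idi1 and Fdft1) were past the threshold without control mouse 2, beside 20.7% of all genes in that fit, where their log2 fold changes were 0.36, 0.27, 0.46 and 0.25 (adjusted p 0.128 to 0.169). Without control mouse 3 the changes of Mvk, Pmvk, Idi1 and Fdft1 were 0.074, 0.019, 0.037 and 0.049, and Acat2 and Hmgcs1 were past the threshold, beside 21.7% of all genes. Without control mouse 1 the change of Fdft1 was 0.031. edgeR put 0 members past it, beside 22.3% of all genes. Among the members the sign changed for Fdps and for no other under the alternatives run. Fdps was at 0.14 without L-RalyKO mouse 3 and 0.13 without control mouse 2, with a range from -0.21 to 0.14 when a mouse was left out. The sign also changed for Mmab, the neighbour of Mvk (0.022 without control mouse 2, lowest -0.18). The cause was not tested. The median r over the 36 pairs was 0.57 to 0.79 under the other settings and 0.57 to 0.72 when a mouse was left out, and positive pairs numbered 27 to 36.

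A fit with the replicate number as a block called 704 genes and 0 members (Hmgcs1 adjusted p = 0.0535 by limma) and 12 other pathway genes, the calls of Ciart (0.0294) and Me1 being gained. Acat2 and Hmgcs1 were past an unadjusted p of 0.05 there, beside 22.7% of all genes. Whether equal numbers mark paired mice is not given in the labels. Genes near a value of 5, such as Mvd and Ggps1, rest on 103 to 262 reads a mouse.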
